A study of Caenorhabditis elegans with 6 samples.

Results

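The genes that build and drive the muscle sarcomere of *C. elegans* were examined in worms that express human amyloid-beta in muscle. Membership was by gene name from a list of 47 genes of the thick filament, the giant sarcomere proteins, the thin filament, troponin, the attachments and calcium handling. All 47 were found among the 21498 genes present in both deposited tables, and all 47 passed the filter on low values in both comparisons. The list is named for body wall muscle, but 5 of its genes (*myo-1*, *myo-2*, *tni-4*, *tnt-4* and *tnc-2*) are known from muscle of the pharynx, the feeding organ, and are also given apart from the other 42.

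RNA was taken from whole worms on day 1 of adulthood, after growth at 20 °C and 24 h at 25 °C to induce amyloid-beta, in 3 groups of 2 libraries each. The overexpression group carried an *hlh-30* transgene, which in the study's strain list is an *hlh-30* promoter driving *hlh-30* fused to GFP. The knockout group carried *hlh-30(syb6883)*, a deletion of the first 4 exons. The control group, labelled WT, was described as GMC101, an amyloid-beta strain with *hlh-30* intact, so the controls express amyloid-beta too. The sample descriptions give GMC101 as the background of all 3 groups. Its transgene is an *unc-54* promoter driving amyloid-beta with an *unc-54* 3′ UTR, together with an intestinal *mtl-2* promoter driving GFP. The series text names another amyloid-beta strain, CL4176, in which a *myo-3* promoter drives amyloid-beta and the marker is *rol-6*, a cuticle collagen gene. Reads of *rol-6* were 1030 and 1012 in overexpression worms, against 31.7 and 14.2 in control worms, and 15.3 and 39.8 in the libraries labelled knockout. A *rol-6* marker is also common in other transgenes, so the background strain of the overexpression worms cannot be settled here, and a difference in strain, if there was one, cannot be told apart from the *hlh-30* level. Nothing in the labels says that the 2 libraries of a group came from separate cultures, so p-values measure the spread between these libraries, which may be technical.

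In the body wall muscle of the worm, as in vertebrate striated muscle, bipolar thick filaments of myosin slide along thin filaments of actin. Calcium released from the sarcoplasmic reticulum binds troponin, which with tropomyosin gates the thin filament. Thin filaments are anchored at dense bodies and thick filaments at M-lines, both of which join the sarcomere to the cell membrane through integrins. HLH-30, the worm counterpart of TFEB, is a transcription factor known for autophagy and lysosome genes.

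Values are counts of reads on each gene after division by the library's size factor, and are called normalized reads here. Between 18097925 and 19300834 reads fell on genes in a library. The 47 genes took 1.49% and 1.54% of these reads in overexpression worms, against 1.64% and 1.63% in control worms, and 1.60% and 1.61% in the libraries labelled knockout. *hlh-30* itself was at 6022 and 5693 normalized reads in overexpression worms, against 3102 and 3315 in control worms (log2 fold change 0.87, SE 0.06, limma adjusted p = 3.97e-06). In the libraries labelled knockout it was at 2104 and 3005, against 3049 and 3258 in control worms (log2 fold change -0.33, SE 0.17, limma adjusted p = 0.511). The count covers the whole gene, including the exons that the deletion leaves, so it checks that label only in part, and the wording "labelled knockout" is kept throughout. The defining markers of body wall muscle were present in every library: the summed normalized reads of the 9 genes on that list were 125574 and 123834 in overexpression worms, against 154286 and 152493 in control worms. On the slightly different scale of the knockout table, they were 129939 and 127504 in the libraries labelled knockout, against 151626 and 149871 in control worms. All of these markers but *hlh-1* and *unc-120* are themselves among the 47, so the sums largely repeat the values of the sarcomere genes. In overexpression against control, *hlh-1* had a log2 fold change of -0.27 and *unc-120* one of 0.39 (limma adjusted p = 0.483 and 0.0914).

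The levels of the sarcomere genes spanned a wide range. Per kb of gene length, the control means ran over a 490-fold range, and in 19 of 46 neighbouring pairs in that order the control libraries overlapped, so those neighbours cannot be ranked. At the top stood *mlc-2*, a regulatory light chain of myosin, with 12252 and 13120 normalized reads per kb in overexpression worms, against 13757 and 14330 in control worms. Next came *unc-54*, the major myosin heavy chain of body wall muscle, with 11142 and 11162 per kb in overexpression worms, against 13740 and 13142 in control worms. *unc-15*, the paramyosin of the thick filament core, and the actin gene *act-2* followed, with overlapping control libraries, so their order is not settled. *unc-15* had 7713 and 7633 per kb in overexpression worms, against 9958 and 10458 in control worms. For *act-2* the values were 8573 and 7850 per kb in overexpression worms, against 10499 and 9563 in control worms. In each of these the overexpression libraries lay below the control libraries. The giant proteins were near the other end of the scale, with control means of 251 per kb for *unc-22*, 147 for *unc-89* and 28.6 for *ttn-1*. The 14 attachment genes had control means of 197 per kb (*unc-95*) to 1207 (*pat-3*).

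**Figure D1:**
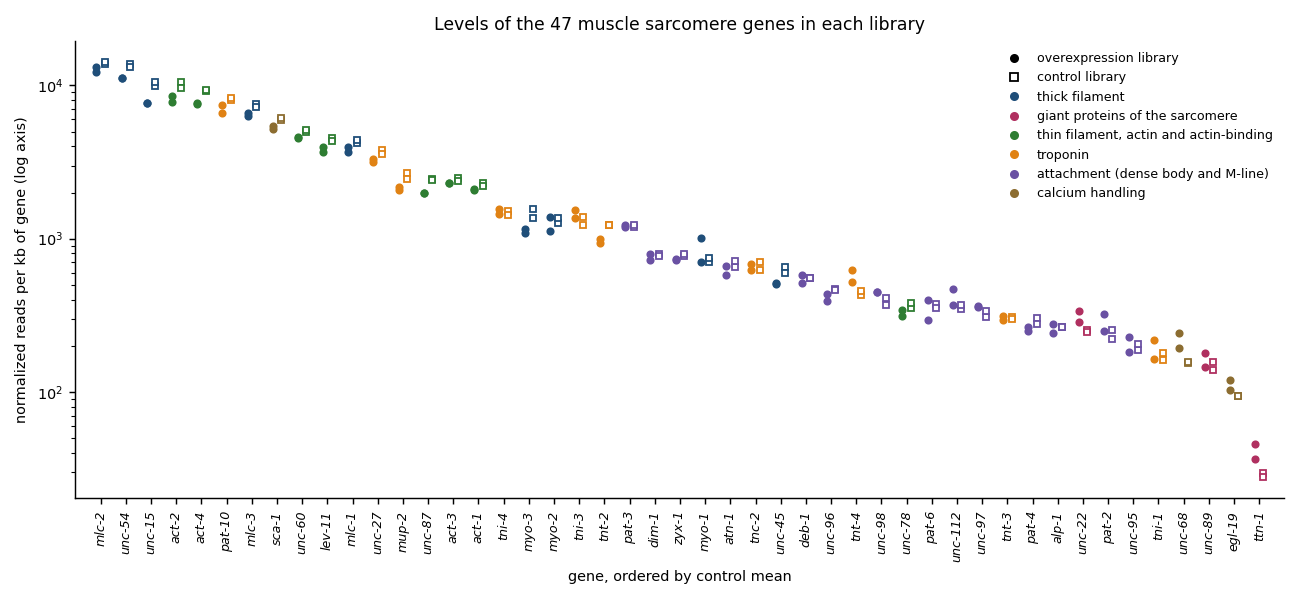
Normalized reads per kb of gene (log axis) of the 47 sarcomere genes, ordered by control mean. Filled circles are the 2 overexpression libraries, open squares the 2 control libraries, and colours give the role; *mlc-2* is highest and *ttn-1* lowest, with a control mean of 28.6.

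Overexpression of *hlh-30* went with a modest shift in many sarcomere genes, in both directions. Of the 47 genes, 17 passed an adjusted p of 0.05, 13 of them lower and 4 higher in overexpression worms, while 14.8% of the 15918 genes tested passed (8.06% lower and 6.71% higher). None of the 47 reached the 2-fold change that the study also asked for, which 1.86% of all genes tested did. The largest of the 47 changes was 0.52 on the log2 scale, in *ttn-1*. The median log2 fold change of the 47 was -0.08, beside -0.00 over all genes tested, and 31 of the 47 lay below 0, as did 50.2% of all genes tested. In 31 genes (23 lower, 8 higher) the 2 libraries of one group did not overlap those of the other, and the same held for 57.4% of all genes tested (29.4% lower, 27.9% higher). Because whole worms were sequenced, a changed level of these genes within muscle cannot be told apart from a changed share of muscle in the RNA of the worm.

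Other genes as abundant as these were also called lower more often than higher. There were 3928 genes tested at or above the lower quartile of the sarcomere genes' level (a mean of 1056 normalized reads). Their median log2 fold change was -0.09, and 24.3% were called lower and 8.25% higher. A log2 fold change below 0 was seen in 2750 of these 3928 genes. In 2942 of the 3928 (2177 lower, 765 higher) the groups did not overlap, so neither position was particular to the sarcomere genes. Across the 47 genes, the log2 fold change fell as the level rose (Spearman's rho -0.54, over genes that share the same 4 libraries), and across all 15918 genes tested rho was -0.25. Under cyclic loess scaling, which evens out such a trend with level and was added after the data were seen, 8 of the 17 calls remained, 4 in each direction, and the median of the 47 was -0.01. The 4 that stayed lower were *unc-15*, *myo-3*, *unc-87* and *tnt-2*. The part of this trend in the other calls was not tested further.

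The calls also rested on both control libraries. Leaving out either one, which leaves the spread to be estimated from the overexpression libraries alone, brought the 17 calls to 0, as it brought those over all genes to 0. All 17 kept their sign with each of the 4 libraries left out in turn.

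The thick filament genes were called lower in overexpression worms in 5 of 9 cases and higher in none, beside 8.06% and 6.71% of all genes tested. Their median log2 fold change was -0.19, and 8 of the 9 lay below 0. Their summed normalized reads were 139022 and 142635 in overexpression worms, against 168584 and 168636 in control worms, a change of -16.5%. The strongest call among the 47 was *unc-15* (chromosome I, 7376604 to 7383197), at 26411 and 26136 normalized reads in overexpression worms, against 34096 and 35807 in control worms (log2 fold change -0.41, SE 0.05, adjusted p = 2.04e-04). *myo-3* (chromosome V, 12226817 to 12234343), the myosin heavy chain at the middle of the thick filament, was at 7017 and 6669 in overexpression worms, against 8325 and 9471 in control worms (log2 fold change -0.38, SE 0.06, adjusted p = 0.00201). *unc-54* (chromosome I, 14855901 to 14863482) was at 69795 and 69919 in overexpression worms, against 86068 and 82320 in control worms (log2 fold change -0.27, SE 0.04, adjusted p = 0.00196). In these 3 genes the 2 overexpression libraries were close to each other and both below the controls. *unc-54* lost its call under cyclic loess scaling, where its log2 fold change was -0.05 (adjusted p = 0.515).

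Reads of the GMC101 transgene can fall on *unc-54*, because it carries an *unc-54* 3′ UTR. In the annotation that UTR is 280 bp long, 4.51% of the exon length of the single annotated transcript, and such reads cannot be told apart from those of the native gene. Per kb of gene length, the ratio of *unc-54* to *unc-15* was 1.44 and 1.46 in overexpression worms, against 1.38 and 1.26 in control worms. On the same scale, that of *unc-54* to *myo-3* was 9.69 and 10.2 in overexpression worms, against 10.1 and 8.47 in control worms. The second ratio overlapped between the groups, and neither was tested.

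The other thick filament genes were the light chains, the chaperone and the pharyngeal myosins. *mlc-3*, the essential light chain, was at 10083 and 9628 normalized reads in overexpression worms, against 11468 and 11041 in control worms (adjusted p = 0.0214). *mlc-1*, which with *mlc-2* encodes the regulatory light chain, was at 4399 and 4721 in overexpression worms, against 5059 and 5272 in control worms (log2 fold change -0.18, adjusted p = 0.0513). *mlc-2* was at 8111 and 8686 in overexpression worms, against 9107 and 9486 in control worms (log2 fold change -0.15, adjusted p = 0.0827). Neither regulatory light chain gene passed the test, although their groups did not overlap, and as near-identical copies they may share reads. *unc-45*, which encodes a chaperone that folds myosin, was at 1510 and 1525 in overexpression worms, against 1929 and 1768 in control worms (log2 fold change -0.28, adjusted p = 0.0169). The pharyngeal myosins overlapped between groups. *myo-1* was at 4587 and 6545 in overexpression worms, against 4551 and 4824 in control worms, and *myo-2* was at 7111 and 8807, against 7979 and 8646. Their adjusted p-values were 0.223 and 0.623, and *myo-1* was the sarcomere gene that differed most between the 2 overexpression libraries, by 0.51 on the log2 scale.

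The thin filament genes were called lower in 4 of 8 cases and higher in none, with a median log2 fold change of -0.20. In all 8 both overexpression libraries lay below both control libraries, although under cyclic loess scaling *act-3* turned to a log2 fold change of 0.02. The same position was seen in 29.4% of all genes tested, and in 2177 of the 3928 more abundant genes described above. The actin genes *act-1*, *act-2* and *act-3* lie together on chromosome V and *act-4* on chromosome X. They encode almost the same protein, so the split of reads among them is uncertain. Their sum was 31674 and 31016 normalized reads in overexpression worms, against 37961 and 36525 in control worms, a change of -15.8%. *act-4* was at 13582 and 13854 in overexpression worms, against 16623 and 16826 in control worms (log2 fold change -0.29, SE 0.05, adjusted p = 0.00161). *act-2* was at 11445 and 10479 in overexpression worms, against 14016 and 12766 in control worms (log2 fold change -0.29, SE 0.06, adjusted p = 0.00639). The calls were thus made in the pair of actin genes with the most reads. *act-1* was at 3025 and 3076 in overexpression worms, against 3395 and 3223 in control worms (adjusted p = 0.208). *act-3* was at 3622 and 3607 in overexpression worms, against 3927 and 3710 in control worms (adjusted p = 0.400).

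Among the proteins that bind actin, *unc-87*, a calponin-like protein that bundles actin filaments, was at 4715 and 4729 normalized reads in overexpression worms, against 5858 and 5786 in control worms (log2 fold change -0.30, SE 0.05, adjusted p = 0.00228). *lev-11*, tropomyosin, was at 9891 and 9216 in overexpression worms, against 11485 and 10967 in control worms (log2 fold change -0.23, SE 0.05, adjusted p = 0.0108). Both groups of libraries were tight and apart in these genes. The actin-severing factors *unc-60* (ADF/cofilin) and *unc-78* (AIP1) had log2 fold changes of -0.14 and -0.17 and did not pass (adjusted p = 0.0646 and 0.249).

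**Figure D2:**
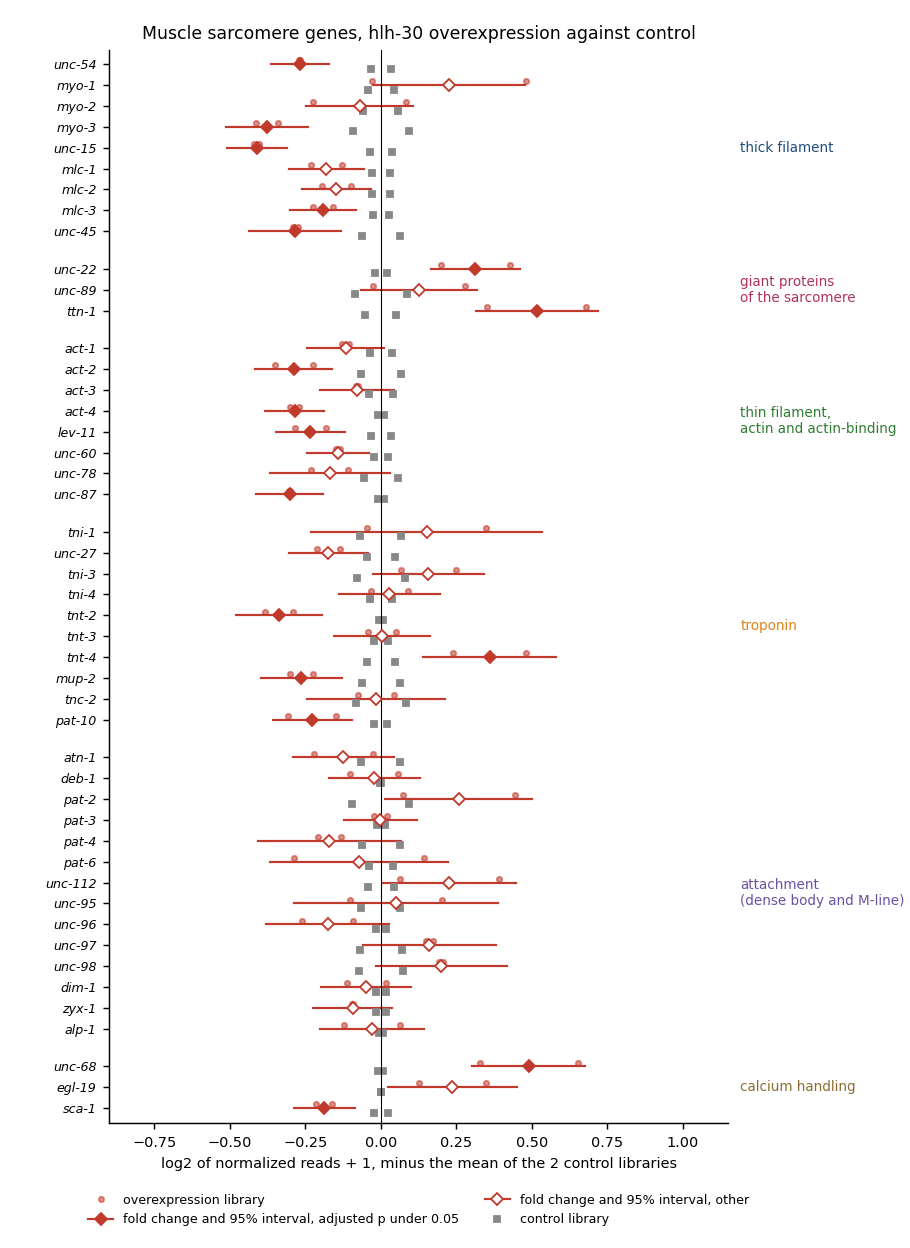
The 47 sarcomere genes by role in overexpression against control: each overexpression library (circles) and control library (squares) as log2 of normalized reads + 1 minus the control mean, and the limma log2 fold change with its 95% interval (diamonds, filled where adjusted p is under 0.05). The 13 lower calls lie in the thick filament, thin filament and troponin groups and in *sca-1*; the 4 higher calls are *unc-22*, *ttn-1*, *tnt-4* and *unc-68*.

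The 3 giant proteins are long Ig- and fibronectin-domain proteins that span or organise the sarcomere. *ttn-1* (chromosome V, 6120909 to 6202632), the titin-like gene, was at 2069 and 2595 normalized reads in overexpression worms, against 1679 and 1563 in control worms (log2 fold change 0.52, SE 0.09, adjusted p = 0.00315). *unc-22* (chromosome IV, 11972697 to 12011007), which encodes twitchin of the thick filament, was at 6581 and 7726 in overexpression worms, against 5818 and 5658 in control worms (log2 fold change 0.31, SE 0.07, adjusted p = 0.00898). Both were higher in each overexpression library, and more so in the second. *unc-89*, the obscurin-like protein of the M-line, was at 3727 and 4599 in overexpression worms, against 4030 and 3571 in control worms (log2 fold change 0.13, SE 0.09, adjusted p = 0.383), and its groups overlapped. Per kb of gene length, *ttn-1* equalled 0.328% and 0.411% of *unc-54* in overexpression worms, against 0.216% and 0.210% in control worms. *ttn-1* overlaps *exp-2*, and *unc-22* overlaps *ZK617.26* and *ZK829.9*, in the annotation, so reads could be split there.

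The genes called higher included the longest of the 47. *ttn-1* at 56.6 kb, *unc-89* at 25.8 kb, *unc-22* at 22.9 kb and *unc-68* at 16.7 kb are the 4 genes of 10 kb and over, and 3 of them were called higher. Among all genes tested of that length (46 genes), the median log2 fold change was 0.38, and 23 were called higher and 2 lower, while the median was -0.05 among the 5631 genes under 1 kb. Between the 2 control libraries the same 46 genes had a median difference of 0.01. When the trend with length was taken out of each library, an alternative added after the data were seen, *ttn-1* had a log2 fold change of 0.13 (adjusted p = 0.208), *unc-22* 0.05 (adjusted p = 0.588) and *unc-89* -0.16 (adjusted p = 0.137). *unc-68* kept its call at 0.27 (adjusted p = 0.0127). With that trend removed, 17 of the 47 genes were again called, 15 lower and 2 higher, and all 13 of the lower calls were kept.

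**Figure D3:**
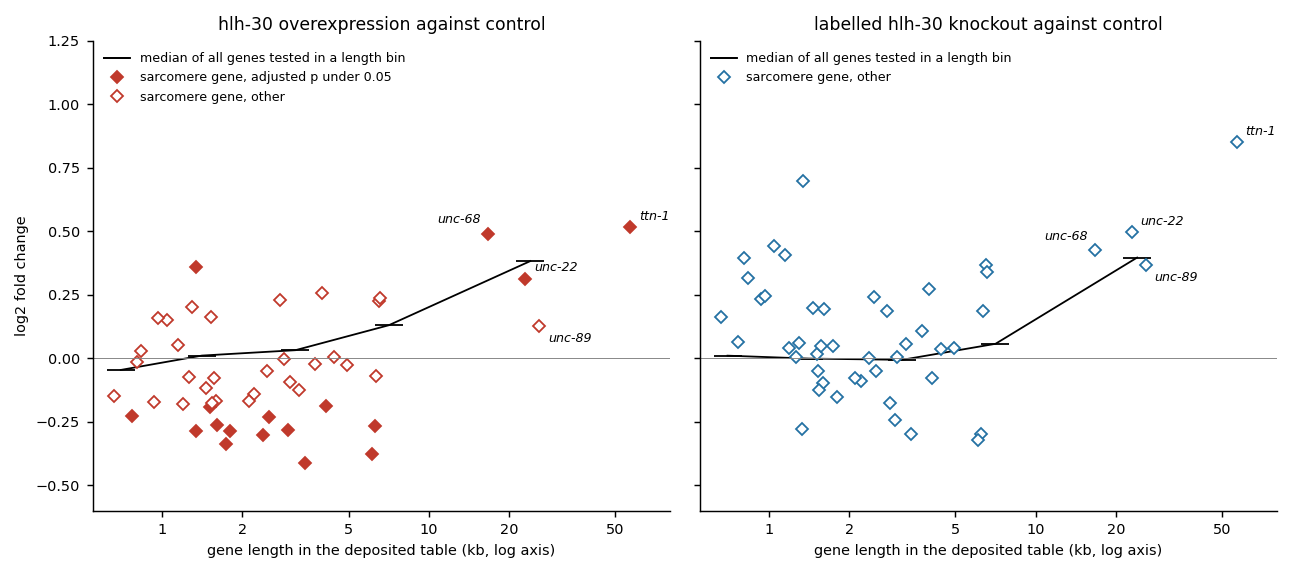
Log2 fold change against gene length (log axis) for the 47 sarcomere genes (diamonds, filled where adjusted p is under 0.05), with the median of all genes tested in each of 5 length bins (black). At 10 kb and over, the median was 0.38 in overexpression and 0.40 in the libraries labelled knockout, and all 4 sarcomere genes of that length lay above 0 in both, although *unc-89* was at -0.16 in overexpression with the length trend removed and at -0.03 without the second overexpression library.

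Troponin has a calcium-binding subunit (troponin C), an inhibitory subunit (troponin I) and a tropomyosin-binding subunit (troponin T), each with several genes in the worm. Of the 10 genes, 3 were called lower and 1 was called higher in overexpression worms, and the median log2 fold change was -0.01. The troponin T genes went apart. *tnt-2* was at 1623 and 1733 normalized reads in overexpression worms, against 2111 and 2127 in control worms (log2 fold change -0.34, SE 0.07, adjusted p = 0.00502). *mup-2*, a troponin T of body wall muscle, was at 3315 and 3498 in overexpression worms, against 4272 and 3910 in control worms (log2 fold change -0.26, SE 0.06, adjusted p = 0.0133). The pharyngeal *tnt-4* was at 701 and 830 in overexpression worms, against 575 and 613 in control worms (log2 fold change 0.36, SE 0.10, adjusted p = 0.0324). Thus 1 pharyngeal troponin T gene rose while *tnt-2* and *mup-2* fell, and *tnt-3* had a log2 fold change of 0.00 (adjusted p = 0.982). No test compared these genes with each other.

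For troponin C, *pat-10* of body wall muscle was at 5684 and 5094 normalized reads in overexpression worms, against 6205 and 6394 in control worms (log2 fold change -0.23, SE 0.06, adjusted p = 0.0233). The pharyngeal *tnc-2* was at 548 and 505 in overexpression worms, against 502 and 564 in control worms (adjusted p = 0.939). No troponin I gene was called. *unc-27*, the most abundant of them, was at 3114 and 2960 in overexpression worms, against 3538 and 3315 in control worms (log2 fold change -0.17, adjusted p = 0.0762). *tni-3* was at 1314 and 1493, against 1188 and 1328 in control worms, and *tni-4* of the pharynx was at 1307 and 1202, against 1261 and 1198. *tni-1* was the lowest of the 47 in reads, at 172 and 226 in overexpression worms, against 186 and 169 in control worms. These last 3 overlapped between groups, with adjusted p-values of 0.251, 0.850 and 0.622. Over all 5 pharyngeal genes, 1 was called and the median log2 fold change was 0.03, while 16 of the other 42 were called and their median was -0.12.

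None of the 14 attachment genes was called by limma, edgeR or DESeq2, 2 had an unadjusted limma p under 0.05, and their median log2 fold change was -0.03. This group holds α-actinin (*atn-1*), vinculin (*deb-1*), the integrin chains (*pat-2* and *pat-3*) and the integrin partners *pat-4* (integrin-linked kinase), *pat-6* (parvin), *unc-112* (kindlin) and *unc-97* (PINCH). It also holds *unc-95*, *unc-96*, *unc-98*, *dim-1*, *zyx-1* and *alp-1*. Their log2 fold changes ran from -0.18 (*unc-96*) to 0.26 (*pat-2*), with a smallest adjusted p of 0.151. Their summed normalized reads were 17238 and 18803 in overexpression worms, against 17866 and 18355 in control worms, a change of -0.497%. Most 95% intervals of these genes held 0, but their width leaves changes of the size seen in the filament genes possible: that of *pat-4*, for example, ran from -0.41 to 0.07.

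Of the 3 calcium handling genes, 1 was called higher and 1 lower. *unc-68* (chromosome V, 6901681 to 6929038), the ryanodine receptor that releases calcium from the sarcoplasmic reticulum, was at 3232 and 4048 normalized reads in overexpression worms, against 2560 and 2590 in control worms (log2 fold change 0.49, SE 0.09, adjusted p = 0.00275). *sca-1*, the SERCA pump that returns calcium to that store, was at 22192 and 21377 in overexpression worms, against 24395 and 25212 in control worms (log2 fold change -0.19, SE 0.05, adjusted p = 0.0165). *unc-68* was thus higher and *sca-1* lower in each overexpression library. Per kb of gene length, the ratio of *unc-68* to *sca-1* was 3.58% and 4.66% in overexpression worms, against 2.58% and 2.53% in control worms. *egl-19*, the voltage-gated calcium channel of the muscle membrane, was at 673 and 786 in overexpression worms, against 617 and 617 in control worms, and did not pass (log2 fold change 0.24, adjusted p = 0.134).

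Across the 5 further scalings and tools (TMM scaling in limma, edgeR, DESeq2, removal of the length trend and cyclic loess), 6 of the 17 calls held, although these too were lost, with all the others, with no filter on low values, with no mean trend in limma and with all 6 libraries in one fit. The 6 were *unc-15*, *myo-3*, *unc-87* and *tnt-2* as lower, and *tnt-4* and *unc-68* as higher. edgeR and DESeq2 on the recovered reads each called all 17, in the same directions. The 11 others lost their call under 1 of the 5 only: *unc-22* and *ttn-1* with the length trend removed, and 9 lower genes under cyclic loess scaling.

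Other tissues also moved in these libraries. The 14 sperm genes summed to 5342 and 5884 normalized reads in overexpression worms, against 8400 and 7280 in control worms, with 7 of 14 called lower. Of 16 germline and oocyte genes, 5 were called lower and none higher. Of 12 intestinal genes tested, 8 were called higher and 1 lower, while their sum was 59379 and 70140 in overexpression worms, against 59540 and 64895 in control worms. Among all genes tested, 8.06% were called lower and 6.71% higher. Among the 3928 more abundant genes described above, these shares were 24.3% and 8.25%. Of 16 neuronal and 12 hypodermal genes, 1 each was called, both higher, and none of the 6 pharyngeal gland and regulatory genes tested was. The part of these shifts in the sarcomere genes was not tested.

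The libraries labelled knockout gave no sarcomere call by limma. Of 15749 genes tested, 2 (0.0127%) passed an adjusted p of 0.05, and 0 of the 47 did, with 12 of the 47 at an unadjusted p under 0.05 (10 higher, 2 lower), beside 11% of all genes tested (5.87% higher, 5.11% lower). edgeR also called 0 of the 47, and DESeq2 called 3 higher, with 86 of all genes higher and 33 lower. The median log2 fold change of the 47 was 0.06, beside 0.00 over all genes tested, and 15 of the 47 lay below 0, beside 49.8% of all. In 24 of the 47 (20 higher, 4 lower) the groups did not overlap, which was so for 45.7% of all genes tested (22.4% higher, 23.4% lower). Among the 3963 genes at or above the lower quartile of the sarcomere genes' level here, the median log2 fold change was -0.08 and 67.3% lay below 0. In 2145 of these 3963 the groups did not overlap (623 higher, 1522 lower). The controls were the same 2 libraries as in the overexpression comparison, so the 2 comparisons are not independent, and the difference between overexpression and knockout was not tested.

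The 2 libraries labelled knockout differed from each other more than those of the other groups. The median absolute difference over the 47 genes was 0.20 on the log2 scale between them, against 0.12 between the overexpression libraries and 0.08 between the control libraries. *myo-3* showed it most, at 5562 and 8765 normalized reads. Their germline and oocyte genes summed to 181342 and 129906, against 174350 and 165009 in control worms, and their intestinal genes to 104355 and 58862, against 58513 and 63779. Leaving out 1 of these libraries leaves the spread to be estimated from the controls alone, and then 22 (without the first) or 24 (without the second) of the 47 were called, while leaving out either control library gave 0.

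By role, the giant proteins had the highest median log2 fold change, 0.50 over 3 genes. *ttn-1* had 2949 and 2791 reads after normalization in the libraries labelled knockout, against 1650 and 1536 in control worms (log2 fold change 0.85, SE 0.10, limma adjusted p = 0.228; DESeq2 adjusted p = 7.43e-06). *unc-22* was at 7633 and 8285, against 5718 and 5561 in control worms (log2 fold change 0.50, SE 0.09, limma adjusted p = 0.373; DESeq2 adjusted p = 0.0279). *unc-89* was at 4873 and 4748, against 3960 and 3509 in control worms (log2 fold change 0.37, SE 0.10, limma adjusted p = 0.398). In all 3 both libraries labelled knockout lay above both controls. Over all genes tested of 10 kb and over, the median was 0.40 here, and with the length trend removed *ttn-1* had 0.56 and *unc-22* 0.31 (both limma adjusted p = 0.402).

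The thick filament genes spread both ways, with a median log2 fold change of 0.02. *unc-54* had 72688 and 62323 reads after normalization in the libraries labelled knockout, against 84585 and 80905 in control worms (log2 fold change -0.30, SE 0.09, limma adjusted p = 0.421). *unc-15* was at 26077 and 29958, against 33509 and 35191 in control worms (log2 fold change -0.30, SE 0.09, limma adjusted p = 0.421). These were the 2 lower genes with an unadjusted p under 0.05, and both libraries labelled knockout lay below both controls in each. *myo-3* overlapped the controls, which were at 8182 and 9308 (limma adjusted p = 0.570). *myo-1* was at 6653 and 5289, against 4473 and 4741 in control worms (log2 fold change 0.37), and *myo-2* at 10041 and 8598, against 7842 and 8497 (log2 fold change 0.19). Both pharyngeal myosins were above the controls, without passing the test (limma adjusted p = 0.428 and 0.525). The light chains and *unc-45* had log2 fold changes of -0.24 to 0.16.

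**Figure D4:**
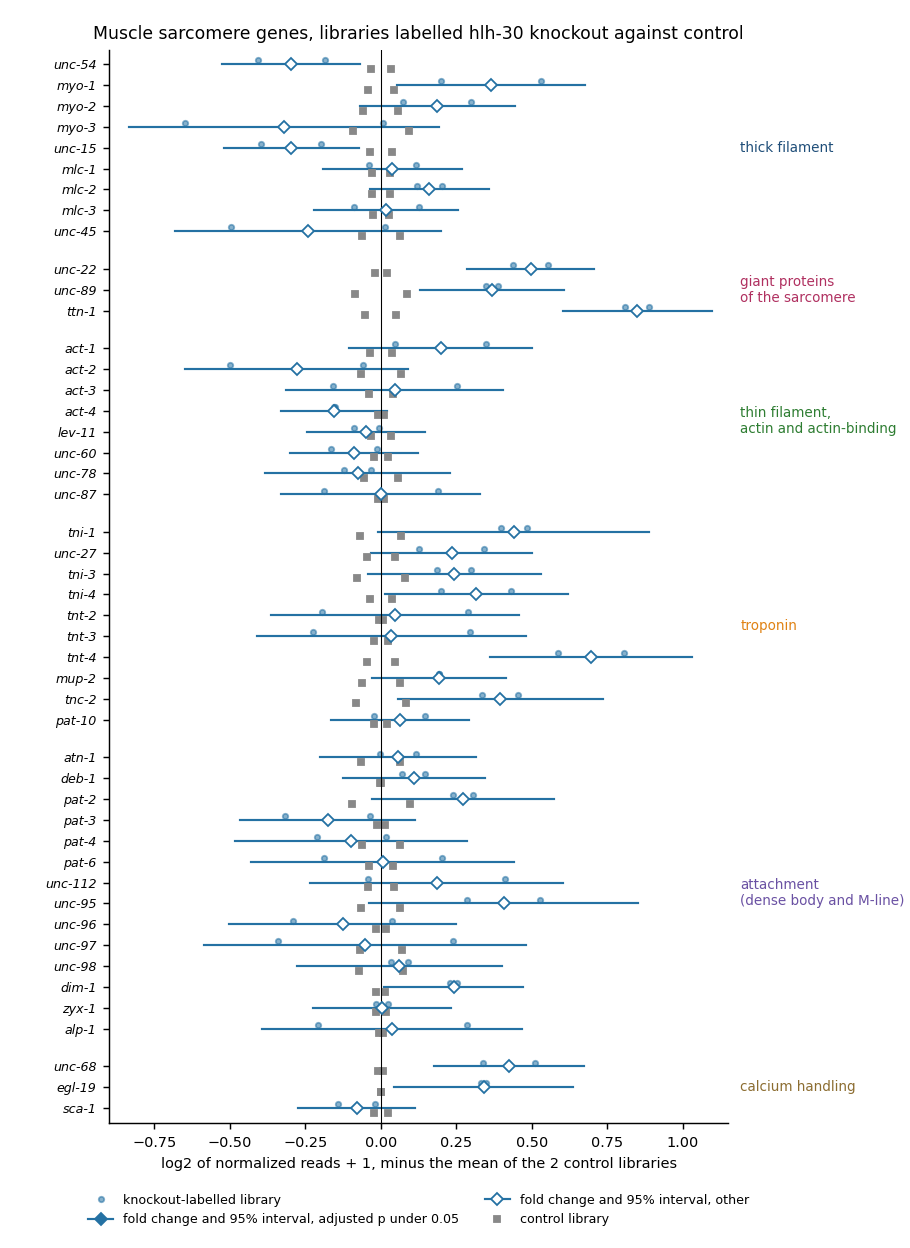
The 47 sarcomere genes by role in the libraries labelled *hlh-30* knockout against control: each knockout-labelled library (circles) and control library (squares) as log2 of normalized reads + 1 minus the control mean, and the limma log2 fold change with its 95% interval (diamonds). No gene passed an adjusted p of 0.05; *ttn-1* was the furthest from 0, at 0.85.

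All 10 troponin genes had a log2 fold change above 0 in the libraries labelled knockout, with a median of 0.24, although *tnt-2* was at -0.20 without the first of these libraries, and *tnt-3* and *pat-10* were at -0.23 and -0.02 without the second. In 7 of the 10 the groups did not overlap, beside 45.7% of all genes tested (22.4% higher), and none passed the test. The furthest was the pharyngeal *tnt-4*, at 1022 and 877 normalized reads, against 565 and 603 in control worms (log2 fold change 0.70, SE 0.14, limma adjusted p = 0.392; DESeq2 adjusted p = 0.0186). *tni-1* was at 230 and 244, against 183 and 166 in control worms, *tnc-2* at 660 and 717, against 494 and 554, and *tni-4* at 1388 and 1629, against 1239 and 1177. *unc-27* was at 4269 and 3674, against 3477 and 3258, *tni-3* at 1520 and 1405, against 1167 and 1305, and *mup-2* at 4592 and 4595, against 4198 and 3843. In each of these both libraries labelled knockout were above both controls. *tnt-2* was at 2547 and 1818, against 2075 and 2091 in control worms, and *pat-10* at 6099 and 6852, against 6098 and 6284; with *tnt-3* these were the 3 whose groups overlapped. The median over the 5 pharyngeal genes was 0.37, and 4 of them had an unadjusted p under 0.05, while the other 42 had a median of 0.04 and 8 of them did.

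None of the remaining genes passed the test in the libraries labelled knockout. Over the 8 thin filament genes the median was -0.06 on the log2 scale, from -0.28 (*act-2*, at 12611 and 9303 normalized reads, against 13774 and 12547 in control worms) to 0.20 (*act-1*, at 4142 and 3360, against 3337 and 3168). *act-4* was at 14792 and 14743, against 16336 and 16537 in control worms, *act-3* at 4468 and 3360, against 3860 and 3647, and *lev-11* at 10361 and 10976, against 11287 and 10778. Of these 3 only *act-4* had groups that did not overlap (limma adjusted p = 0.482). The 14 attachment genes had a median of 0.05, and the 3 calcium handling genes one of 0.34. *unc-68* was at 3606 and 3200, against 2516 and 2546 in control worms (log2 fold change 0.42, SE 0.10, limma adjusted p = 0.394). *egl-19* was at 764 and 773, against 606 and 607 in control worms (log2 fold change 0.34, SE 0.12, limma adjusted p = 0.432). Both calcium channels were above the controls in each library labelled knockout, while *sca-1* overlapped them at 22112 and 24065, against 23975 and 24778.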

How the data were processed

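The deposited tables hold, for each library, a normalized signal that the authors made by dividing the reads counted per gene by a size factor. HISAT2, featureCounts and DESeq2 are listed in the submitters' processing notes, and the build is not given in the sources used here. The values were whole multiples of 1 read in 100% of cases (tolerance 0.02 reads), which gave back the reads. The deposited gene length column was used for values per kb. Columns of the authors' fold changes and p-values were not used. Gene coordinates came from the WBcel235 annotation.

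log2(value + 1) was tested with limma 3.58.1 (R 4.3.3, mean trend) on the 4 libraries of a comparison, in genes with at least 10 normalized reads in 2 libraries. p-values were adjusted by Benjamini-Hochberg over all genes tested, and an adjusted p under 0.05 was a call. Fold changes are on this scale and understate those of low genes. Alternatives included edgeR 4.0.16 and DESeq2 1.42.0 on the recovered reads. On simulated data for the overexpression comparison (15816 genes), limma called 31.3% of genes changed 1.2-fold, 89.6% of those changed 1.5-fold and 100% of those changed 2.5-fold. There the spread between libraries was set by hand, only 67, 67 and 66 genes were changed, and no trend with level or length was put in. These shares therefore check the method and do not give its power in the real libraries. The 2 knockout columns could not be tied to replicate numbers. All sarcomere genes and lists were chosen with earlier results of these data known. By rule, libraries are given for filament, troponin and calcium genes and for every call, up to about 30, smallest adjusted p first.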

Additional observations from a re-analysis of the deposited data

How the results depend on the processing

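In overexpression, 17 sarcomere genes and 2351 of all genes were called. The sarcomere calls came to 0 with no filter on low values (0 of all genes), with no mean trend in limma (3 of all genes), with all 6 libraries in one fit (13 of all genes) and with the 2-fold threshold (296 of all genes). They came to 8 under cyclic loess scaling, where the median of the 47 was -0.011, and the median was -0.14 with the length trend removed. Leaving out 1 library gave 0 to 25 sarcomere calls, 0 to 2898 calls in all and medians of -0.12 to -0.076. A replicate block gave 20 sarcomere calls, but the numbers did not pair these libraries (r = 0.027 across genes between same-numbered deviations). No paired analysis was possible for knockout because its columns could not be tied to the replicate numbers of the samples.

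In knockout, with 0 sarcomere calls and 2 of all genes, DESeq2 gave 3 sarcomere calls, all higher, with 86 genes higher and 33 lower in all. With no filter 1 of all genes was called, with no mean trend 0, and with the length trend removed 1. Leaving out 1 library gave 0 to 24 sarcomere calls, 0 to 4075 in all and medians of 0.046 to 0.19. The causes were not tested.

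Some genes not called turned sign. In overexpression these were *unc-89* (-0.16), *tnt-3* (-0.0715) and *tnc-2* (0.012) with the length trend removed, and *myo-2* (0.058) and *act-3* (0.015) under cyclic loess. In knockout they were *unc-87* (edgeR 0.028, DESeq2 0.016, cyclic loess 0.089), and under cyclic loess also *lev-11* (0.052) and *sca-1* (0.034). With 1 library left out, log2 fold changes in overexpression ran from -0.031 to 0.48 (*myo-1*), -0.22 to 0.084 (*myo-2*), -0.026 to 0.28 (*unc-89*), -0.047 to 0.35 (*tni-1*), -0.033 to 0.089 (*tni-4*), -0.044 to 0.051 (*tnt-3*) and -0.099 to 0.066 (*tnc-2*). In knockout they ran from -0.65 to 0.0063 (*myo-3*), -0.041 to 0.12 (*mlc-1*), -0.091 to 0.12 (*mlc-3*), -0.50 to 0.013 (*unc-45*), -0.16 to 0.25 (*act-3*), -0.19 to 0.19 (*unc-87*), -0.20 to 0.29 (*tnt-2*), -0.23 to 0.30 (*tnt-3*) and -0.021 to 0.15 (*pat-10*).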

Other observations

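Beyond the 47 sarcomere genes, 69 of a list of 74 other muscle genes (regulators, receptors, channels, basement membrane, cytoskeleton) were in the tables and tested. In overexpression worms 10 were called higher and 6 lower by limma, beside 6.71% higher and 8.06% lower of all genes tested. In the libraries labelled knockout none was called, and 13 had an unadjusted p under 0.05, beside 11% of all genes tested. *act-5*, the actin of the intestinal brush border, was the only one of the 16 past a 2-fold change, at 2015 and 3088 normalized reads in overexpression worms, against 1086 and 1225 in control worms (log2 fold change 1.11, SE 0.14). It is not a body wall muscle gene, and the list of intestinal genes holds it too.

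The next genes were picked after their values were seen. *itr-1*, the IP3 receptor, another calcium release channel, was at 2841 and 3378 in overexpression worms, against 2235 and 2061 in control worms (log2 fold change 0.53). *csq-1*, calsequestrin, which stores calcium in the sarcoplasmic reticulum, was at 4092 and 3706 in overexpression worms, against 4726 and 4857 in control worms (log2 fold change -0.30). The copine-domain genes *cpna-1* and *cpna-2* were called in opposite directions. *cpna-1* was at 3137 and 3029 in overexpression worms, against 3826 and 4283 in control worms (log2 fold change -0.39), and *cpna-2* was at 2057 and 2717, against 1474 and 1449 (log2 fold change 0.69). The type IV collagens of the muscle basement membrane, *emb-9* and *let-2*, were both lower, with log2 fold changes of -0.28 and -0.20. *ketn-1*, the kettin-like protein of the thin filament near dense bodies, was at 6126 and 6663 in overexpression worms, against 7758 and 7524 in control worms (log2 fold change -0.26). The other higher calls on this list were *gtl-1* (log2 fold change 0.65), *cex-1* (0.55), *tmd-2* (0.52), *him-4* (0.50), *nmy-1* (0.41), *jph-1* (0.35) and *nmy-2* (0.20). The other lower call was *cap-2* (-0.22).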
